A study of Homo sapiens with 19 samples.

Results

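The 10 genes described here encode the histone variant H3.3 and the proteins known to handle it: H3-3A and H3-3B, HIRA, UBN1 and CABIN1, ASF1A and ASF1B, DAXX and ATRX, and DEK. They were picked by symbol from the RefSeq identifiers of an RNA table, and all 10 passed the filter that left 11671 measured genes (a mean of 1 FPKM or more over both libraries, FPKM being read fragments corrected for the length of the transcript and the size of the library). The cells were U2OS, an established human osteosarcoma line, harvested 72 hr after transfection with siRNA against EP400 or with mock siRNA against GFP. EP400 is a SWI/SNF-family ATPase that remodels nucleosomes together with TIP60, and the series title names the deposition of H3.3 by EP400 at promoters and enhancers as the subject. RNA was sequenced once in each condition, and chromatin immunoprecipitation (ChIP) gave 1 list of enriched regions for H3.3, H2AZ, Pol II and the Mediator subunit MED26 in each condition, and 1 list for H3K18ac and for H3K4me1 after mock siRNA. The 3 EP400 immunoprecipitations, whose labels name no siRNA, came as 1 pooled list. There was 1 library per condition, so no difference below has a replicate check or a p-value, and differences are given as values.

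H3.3 differs from the replication-dependent H3 histones at a few residues and is placed into chromatin throughout the cell cycle. The HIRA complex, made of HIRA with UBN1 and CABIN1, places it in active genes and at promoters, and DAXX with the ATPase ATRX places it at telomeres and other repeats. ASF1A and ASF1B hand H3-H4 dimers to such complexes. ASF1A works mainly with HIRA, and ASF1B is linked to proliferation. U2OS cells keep their telomeres without telomerase and are known to lack ATRX protein because of a deletion within the gene.

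The targeted mRNA, that of EP400 itself, was listed at 2.28 FPKM after EP400 siRNA (the authors' confidence limits 0.162 to 4.41), against 10.04 FPKM in mock cells (0.165 to 19.9). Of 5 osteoblast or osteosarcoma markers 4 reached 1 FPKM in mock cells, led by COL1A1 at 60.8 FPKM after EP400 siRNA and 376 FPKM in mock cells. Summed over that list the level was 249.5 FPKM after EP400 siRNA and 609.8 FPKM in mock cells. The hepatocyte marker ALB was listed at 0 in both libraries. Of 3 epithelial markers KRT8 alone was high, at 114.6 FPKM after EP400 siRNA and 369 FPKM in mock cells. The part of such differences in the results below was not tested.

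Promoter sequences from RefSeq (GRCh38.p14, 250 bases before to 50 after an annotated start) were at hand for 8 of the 10 genes, and those of DAXX and ATRX were not used here. The sequences are those of the 3 genes with the lowest RNA ratios among these, and H3-3B, the most expressed gene, which was added after its values were seen. H3-3A has 4 annotated starts and the most downstream is shown. Capitals mark matches to CCAAT or GGGCGG on either strand, the 2 of the 7 searched motifs that these promoters hold. GGGCGG is the core of the GC box, and CCAAT is the box bound by NF-Y.
H3-3A (chr1:226062466-226062765, + strand): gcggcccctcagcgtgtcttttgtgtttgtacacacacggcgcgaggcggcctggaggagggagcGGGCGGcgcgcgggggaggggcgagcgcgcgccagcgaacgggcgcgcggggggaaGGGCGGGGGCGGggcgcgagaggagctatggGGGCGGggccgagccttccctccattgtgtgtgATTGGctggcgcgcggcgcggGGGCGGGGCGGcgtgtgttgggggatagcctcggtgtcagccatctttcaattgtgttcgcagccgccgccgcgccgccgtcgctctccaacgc
H3-3B (chr17:75779730-75780029, - strand): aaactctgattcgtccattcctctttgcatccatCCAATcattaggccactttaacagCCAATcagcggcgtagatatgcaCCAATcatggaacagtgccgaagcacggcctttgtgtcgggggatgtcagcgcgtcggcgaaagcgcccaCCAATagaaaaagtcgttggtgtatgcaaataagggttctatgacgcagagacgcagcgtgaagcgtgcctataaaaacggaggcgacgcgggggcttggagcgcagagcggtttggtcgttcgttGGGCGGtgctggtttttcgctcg
CABIN1 (chr22:24011120-24011419, + strand): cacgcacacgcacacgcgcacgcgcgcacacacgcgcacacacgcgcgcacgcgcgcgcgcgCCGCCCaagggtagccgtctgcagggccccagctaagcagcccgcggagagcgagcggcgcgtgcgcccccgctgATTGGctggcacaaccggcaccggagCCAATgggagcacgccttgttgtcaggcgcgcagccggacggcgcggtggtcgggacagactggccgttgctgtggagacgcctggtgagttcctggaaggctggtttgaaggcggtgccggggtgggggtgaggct
ASF1B (chr19:14136540-14136839, - strand): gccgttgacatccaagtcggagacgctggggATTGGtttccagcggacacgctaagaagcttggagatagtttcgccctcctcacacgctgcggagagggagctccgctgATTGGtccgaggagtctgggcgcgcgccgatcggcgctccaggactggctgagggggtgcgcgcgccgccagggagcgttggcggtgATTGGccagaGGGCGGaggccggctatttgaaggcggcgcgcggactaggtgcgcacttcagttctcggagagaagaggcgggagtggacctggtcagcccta
CCAAT occurs in 34.6% of all 35116 promoters of this length and GGGCGG in 45%. The H3-3B promoter held 4 CCAAT matches, at -216, -192, -169 and -99 from the start, and 1 GGGCGG at 28. The shown H3-3A promoter had the opposite make-up, with 1 CCAAT at -65 and 6 GGGCGG between -185 and -39, 2 of which share a base. ASF1B had 3 CCAAT matches and 1 GGGCGG, and CABIN1 had 2 and 1. TGACGTCA was found at UBN1 (1.85% of all promoters) and CCGGAAGT at HIRA (4.14%), while TTTGGCGC, TTTCGCGC and the NRF1 palindrome matched no promoter of the 8 genes. The NRF1 motif and TGACGTCA read the same on both strands, and none of the 7 motifs contains another. In base composition H3-3B, with 54% G or C, stood below the median of 58.7% over all promoters, and the shown promoters of H3-3A (74%), CABIN1 (72.3%) and ASF1B (65.7%) above it. Peak coordinates below are in another build (hg19) and were not laid over these sequences. A match is a string in this window, not a measured site.

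By mean FPKM the 10 genes lay between the 14.9 percentile (ASF1A) and the 96.1 percentile (H3-3B) of all measured genes. H3-3B, with 178.7 FPKM after EP400 siRNA and 184 FPKM in mock cells, was the highest of the 10 in both libraries. The histone chaperone gene ASF1B followed in mock cells with 109 FPKM, then DAXX (56.1), HIRA (39.6), CABIN1 (30.95), UBN1 (17.7), DEK (7.94), H3-3A (4.01), ATRX (2.13) and ASF1A (1.49). The authors' limits, summed over transcripts, overlapped for every pair of neighbours in this order.

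**Figure D1:**
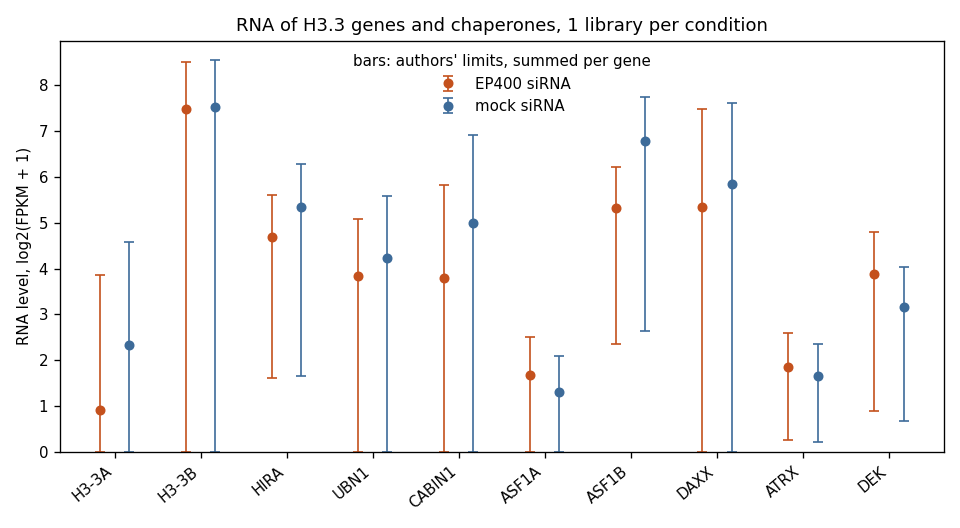
RNA level of each gene as log2(FPKM + 1) after EP400 siRNA (left point of each pair) and after mock siRNA (right point), 1 library each, with bars for the authors' confidence limits summed over transcripts. The bars of the 2 conditions overlap for all 10 genes, including ASF1B at 38.7 FPKM after EP400 siRNA and 109 FPKM in mock cells. For CABIN1, DAXX and UBN1, with several transcripts above 0, summed limits are not confidence limits of the gene total.

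Of the 10 genes 3 had a log2 ratio of -1 or less after EP400 siRNA (2-fold lower) and 0 had 1 or more, where 22.9% of all measured genes were lower and 6.11% higher by the same measure. The ratio was taken after adding 1 FPKM to each library. For weakly expressed genes it therefore shows a smaller change than the plain ratio of the levels. The median over the 10 genes was -0.44, against -0.20 over all measured genes. A count of 3 in 10 is close to the share among all genes. In bulk RNA less RNA per cell and fewer cells with that RNA cannot be told apart.

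The 2 genes for H3.3 itself, whose coding sequences give the same protein, had different ratios. H3-3B had nearly the same value in both libraries, 178.7 FPKM after EP400 siRNA (limits 0 to 361) and 184 FPKM in mock cells (0 to 372), a log2 ratio of -0.04. H3-3A was listed at 0.880 FPKM after EP400 siRNA (0 to 13.5) and at 4.01 FPKM in mock cells (0 to 22.8), which is 21.9% of the mock value and a log2 ratio of -1.41. That value is the smaller part of what the table places at the H3-3A locus. The table puts a second transcript, NR_002315 of the H3.3 pseudogene H3P6, on the same span of chromosome 1 (226250408 to 226259703), although RefSeq annotates H3P6 on another chromosome. The row carried 32.4 FPKM after EP400 siRNA (1.30 to 63.6) and 45.1 FPKM in mock cells (2.25 to 88.0), with the status LOWDATA in both libraries. H3-3A's own transcript NM_002107 therefore held 2.64% of the RNA listed at the locus after EP400 siRNA and 8.16% in mock cells. With both rows added, a choice made after seeing the data, the locus stood at 33.3 FPKM after EP400 siRNA and 49.2 FPKM in mock cells, a log2 ratio of -0.55, so the 2-fold call for H3-3A ends and the count of lower genes is 2. A further H3.3-like gene, the intronless H3-5, was listed at 130 FPKM after EP400 siRNA and 141.5 FPKM in mock cells (log2 ratio -0.12). How the authors' counting split reads between such near-identical copies was not stated in these sources. The single values of H3-3A, H3-3B, H3P6 and H3-5 are therefore uncertain.

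In the deposited values the HIRA complex genes were lower after EP400 siRNA, with CABIN1 alone past 2-fold. CABIN1, the largest subunit, had 12.9 FPKM after EP400 siRNA (0 to 55.9) and 30.95 FPKM in mock cells (0 to 119), a log2 ratio of -1.20. Its 3 transcripts were all lower: NM_012295 had 7.60 FPKM after EP400 siRNA and 17.99 FPKM in mock cells, NM_001201429 had 3.25 and 7.99 FPKM, and NM_001199281 had 2.02 and 4.98 FPKM. HIRA, the subunit that gives the complex its name, had 24.8 FPKM after EP400 siRNA (2.05 to 47.6) and 39.6 FPKM in mock cells (2.16 to 77.1), a log2 ratio of -0.65. UBN1, the subunit that binds the H3.3-specific residues, had 13.2 FPKM after EP400 siRNA (0 to 32.9) and 17.7 FPKM in mock cells (0 to 46.7), a log2 ratio of -0.39, from 2 transcripts that were each lower after EP400 siRNA. The 2-fold call of CABIN1 ended on rescaling the FPKM to equal sums (TPM, -0.48), on centring by local gene density (-0.42) and on centring by chromosome (-0.32). HIRA turned to 0.10 on rescaling and 0.23 by chromosome, and UBN1 to 0.34 and 0.38 and, by local density, 0.02.

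The 2 ASF1 paralogs had ratios of opposite sign. ASF1B stood at 38.7 FPKM after EP400 siRNA (4.08 to 73.4) and 109 FPKM in mock cells (5.26 to 213). This is a ratio of 35.6%, or -1.47 on the log2 scale with 1 FPKM added. H3-3A, at 21.9%, was lower as a plain ratio, with a smaller pseudocount and on rescaling or centring by density or chromosome. ASF1A, at 2.21 FPKM after EP400 siRNA (0 to 4.72) and 1.49 FPKM in mock cells (0 to 3.28), had a log2 ratio of 0.37. Both signs were kept under every scaling tried, although ASF1B was past 2-fold only as deposited, on median centring and with another pseudocount, filter or choice of rows. It was at -0.71 on rescaling to equal sums, -0.53 on centring by local gene density and -0.42 on centring by chromosome. The difference between the paralogs was not tested.

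DAXX, the H3.3 chaperone, had 39.5 FPKM after EP400 siRNA (0 to 177) and 56.1 FPKM in mock cells (0 to 194), a log2 ratio of -0.49. On rescaling it was 0.27, and relative to genes of like local density 0.54. Of its 4 transcripts 3 were lower, and NM_001141970 was listed at 0.798 FPKM after EP400 siRNA and at 0 in mock cells. Its partner ATRX stood at 2.61 FPKM after EP400 siRNA (0.190 to 5.03) and 2.13 FPKM in mock cells (0.167 to 4.10), a log2 ratio of 0.20. All of it was listed under NM_138270, and NM_000489 was at 0 in both libraries. The table gives 1 value over a whole transcript, so it does not show which exons of ATRX these reads came from. DEK, an abundant chromatin protein with a described H3.3 chaperone activity, had the highest ratio of the 10, with 13.8 FPKM after EP400 siRNA (0.854 to 26.7) and 7.94 FPKM in mock cells (0.610 to 15.3), a log2 ratio of 0.72. DEK kept its sign under every scaling tried, and ATRX turned to -0.14 on centring by local gene density.

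**Figure D2:**
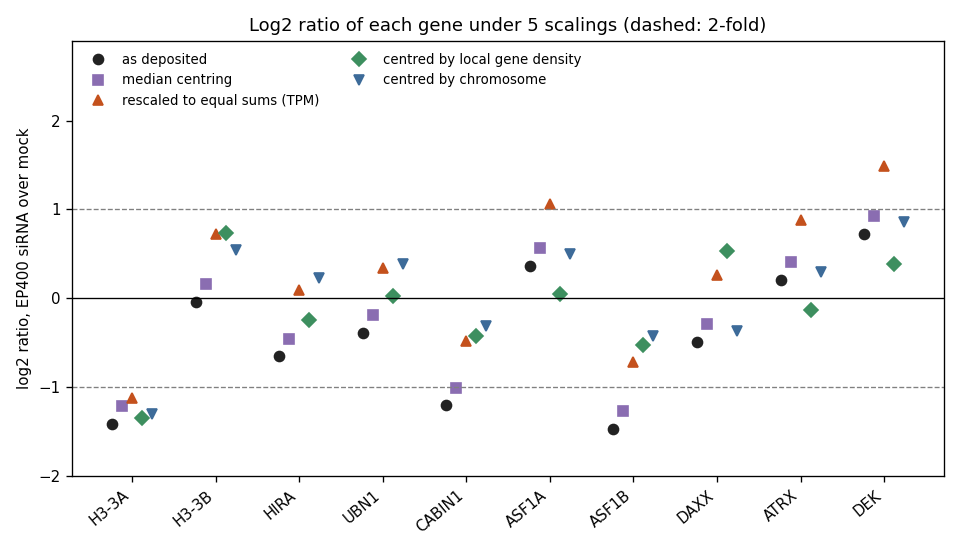
Log2 ratio of each gene, EP400 siRNA over mock, under 5 scalings of the same 2 libraries, with dashed lines at 2-fold. H3-3A, CABIN1 and ASF1B lie below 0 and ASF1A and DEK above 0 under all 5, whereas H3-3B, HIRA, UBN1, DAXX and ATRX have values on both sides of 0.

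The sign depended on the scaling for 5 of the 10 genes. Rescaling to equal sums moved the median of all measured genes to 0.48, gave 1 lower gene (H3-3A) and 2 higher genes (ASF1A at 1.06, DEK at 1.49), and put 7 of the 10 genes above 0, compared with 3 as deposited. Under that scaling 5.97% of all measured genes were lower and 31.5% higher. On median centring 3 were lower and 0 higher, against 15.6% and 10.8% of all measured genes. Relative to the median of all genes, H3-3A, CABIN1 and ASF1B were lower and H3-3B, ASF1A and DEK higher under all 5 scalings.

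Other genes that handle histone H3 were mixed. Of 22 such genes (H3-H4 chaperones, the remodelers CHD1 and CHD2, readers of H3.3 and their partners) 20 were measured, 4 of them were 2-fold lower or more and 0 were 2-fold higher, with a median log2 ratio of 0.05. The count of 4 in 20 is near the 22.9% of all measured genes. The 4 were CDAN1, which binds ASF1 in the cytoplasm (4.32 FPKM after EP400 siRNA and 14.3 FPKM in mock cells, log2 ratio -1.53), TONSL, a reader of new H4 at replication forks (28.1 and 76.9 FPKM, -1.42), PML, the scaffold of the nuclear bodies that hold DAXX (14.3 and 34.3 FPKM, -1.20), and MCM2, a helicase subunit that binds H3-H4 (73.6 and 160.4 FPKM, -1.11). On rescaling 0 of the 20 were lower and 6 higher, near the 5.97% and 31.5% of all measured genes under that scaling.

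In chromatin every one of the 10 loci carried Pol II and MED26 at an end in both conditions. A gene end is a window of 2 kb outward and 2 kb inward from the first or last base of a locus, and a locus in the RNA table is a cluster of overlapping transcripts. Among all measured genes Pol II lay at an end of 82.1% after EP400 siRNA and 88% in mock cells, and MED26 at 77.4% and 80.7%. H2AZ was at 7 of the 10 after EP400 siRNA and at all 10 in mock cells (56.5% and 77.1% of all genes). H3.3 was at 6 after EP400 siRNA and 8 in mock cells (34.9% and 70.3%). H3K18ac, an acetyl mark of active promoters and enhancers, was at 9 in mock cells (74.6%), and H3K4me1, a mark of enhancers, at 3 (31%). The peaks are intervals deposited with no height, and library depth, which can affect how many peaks a caller finds, is not known. ASF1A shares its locus with MCM9, within which RefSeq places it, so the ends of that locus are those of MCM9.

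**Figure D3:**
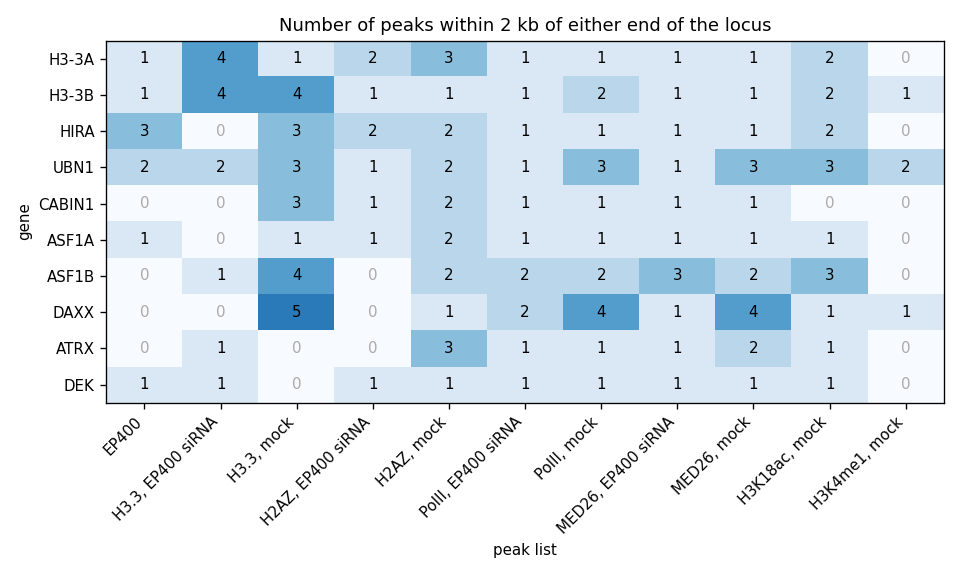
Number of peaks within 2 kb of either end of each locus (rows), per deposited list (columns), with the list after EP400 siRNA left of its mock list. DAXX has 0 H3.3 peaks after EP400 siRNA and 5 in mock cells, and H3-3A has 4 and 1.

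EP400 lay at an end of 6 of the 10 loci (H3-3A, H3-3B, HIRA, UBN1, DEK and the shared ASF1A and MCM9 locus), against 36% of all measured genes. CABIN1, ASF1B and DAXX had no EP400 peak in the locus or its 2 kb flanks, and ATRX had a single peak of 100 bp deep inside. Of the 3 genes with the lowest RNA ratios, CABIN1 and ASF1B were thus without EP400 and H3-3A had it. At HIRA there were 3 EP400 peaks at the right end (chromosome 22, 19419301 to 19420350), within 1 Pol II peak that also spans the 816 bp gap to MRPL40. At DEK a peak of 350 bp, wider than 98.1% of the EP400 list, lay inside the right end and passed it by 1 bp (chromosome 6, 18264451 to 18264800). H3-3B carried a peak of 100 bp just inside its right end, where its transcription starts (chromosome 17, 73775551 to 73775650), under Pol II, MED26 and H3K18ac. At H3-3A EP400 stood apart from those factors: its peaks lay 1393 and 2393 bp inside the left end, and the mock Pol II peak ended 992 bp inside. Among the 12 EP400 peaks at these loci 6 overlapped mock Pol II, 6 H3K18ac, 6 mock H2AZ and 1 mock H3.3, where the whole EP400 list had 25.5%, 27.9%, 17.4% and 10.4%. The whole list is not limited to loci of measured genes, whereas all 10 loci here carried Pol II at an end, so the 2 sets are unlike. Peaks of 1 locus are not independent, and the 3 at HIRA are in each count of 6. Neighbouring genes share the ends of HIRA, UBN1, ASF1B, DAXX and DEK.

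The Pol II peaks at both genes for H3.3 were wide in both conditions. At H3-3A the peak spanned 1600 bp after EP400 siRNA and 2300 bp in mock cells, wider than 94.6% and 97.1% of the peaks of its list. At H3-3B it spanned 1400 and 1900 bp (91% and 94.1%). MED26 covered 1200 bp after EP400 siRNA and 1300 bp in mock cells at H3-3A, and 700 bp in both at H3-3B. At the right end of DAXX the Pol II peak spanned 200 bp after EP400 siRNA and 1100 bp in mock cells, and at the right end of ATRX 100 and 800 bp. The other way, the widest MED26 peak at the right end of ASF1B spanned 900 bp after EP400 siRNA and 200 bp in mock cells. The inner Pol II region of the ASF1A locus was 1 peak of 1900 bp after EP400 siRNA, against 2 of 1100 and 400 bp in mock cells. Widths depend on depth and threshold, which the lists do not carry. Over the 10 loci and their flanks Pol II numbered 15 peaks after EP400 siRNA and 22 in mock cells, with fewer at 5 genes and more at 0 (39% and 8.62% of all measured genes with any Pol II peak). MED26 numbered 21 and 24, with fewer at 4 genes and more at 3 (29.7% and 21.9%). H2AZ numbered 12 and 25, with fewer at 7 genes and more at 0 (61.2% and 9.02%).

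**Figure D4:**
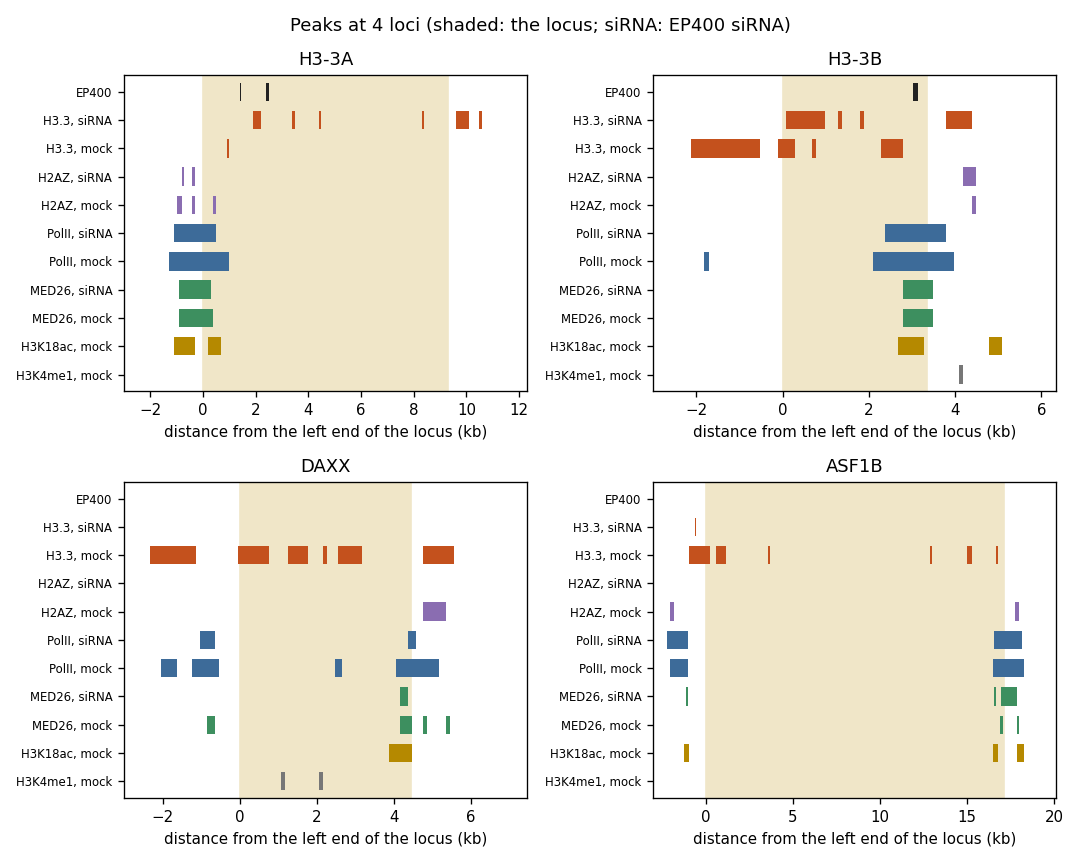
Peaks of every list at H3-3A, H3-3B, DAXX and ASF1B, by distance in kb from the left end of the locus (shaded), with the list after EP400 siRNA above its mock list. The H3.3 track of DAXX is empty after EP400 siRNA and holds 6 peaks in mock cells, while at H3-3B both conditions have 4 H3.3 peaks at partly different places.

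H3.3 at the genes that encode and handle it differed by locus. Counts take in the 2 kb flanks of each locus. DAXX had 0 H3.3 peaks after EP400 siRNA, against 6 of 100 to 1200 bp in mock cells (chromosome 6, 33284001 to 33291900). The widest of the 6 lay outside the locus, beyond the 615 bp gap to ZBTB22. The H2AZ peak of 600 bp at DAXX was likewise in the mock list alone. ASF1B had 1 H3.3 peak of 100 bp after EP400 siRNA, within a mock peak of 1200 bp at the left end, and 6 peaks in mock cells. CABIN1 had 9 after EP400 siRNA and 21 in mock cells. At its ends there were 0 and 3. HIRA had 7 and 11, and the 3 peaks at its right end were in mock cells alone. UBN1 had 3 and 8, with a peak of 1000 bp after EP400 siRNA inside a mock peak of 1600 bp at the right end, which PPL shares. H3-3B had 4 in each condition. The widest after EP400 siRNA (900 bp) lay inside the gene at the left end, and the widest in mock cells (1600 bp) just outside it.

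Against these stood ATRX, H3-3A and DEK. ATRX had 16 H3.3 peaks after EP400 siRNA and 0 in mock cells, all of them 100 or 200 bp wide. The locus is 281.4 kb long on chromosome X of the reference genome. Between 76759001 and 76869800, in its left part and left flank, lay 15 of the 16. The last lay at 77037301 to 77037400, near the right end. The stretch between held no H3.3 peak and no peak of any other list. Whether this stretch falls in the deletion within ATRX named above was not tested. Of the 60 measured chromosome X genes with a locus of 100 kb or more, 28 had more H3.3 peaks after EP400 siRNA and 14 fewer, with 250 peaks after EP400 siRNA and 207 in mock cells. The H3.3 list of the whole chromosome held 554 peaks after EP400 siRNA and 987 in mock cells. A difference of 16 or more peaks was found at 251 of 11671 measured genes. H3-3A had 6 after EP400 siRNA, the widest of 500 bp just past its right end (226260001 to 226260500), and 1 in mock cells. DEK had 3 and 1, and the ASF1A locus 1 and 1. By count 5 of the 10 loci had fewer H3.3 peaks after EP400 siRNA and 3 had more, where 70.2% of all measured genes with any H3.3 peak had fewer and 23.7% more.

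At gene ends 4 of the 8 genes with H3.3 in mock cells (HIRA, CABIN1, DAXX and the ASF1A locus) had none after EP400 siRNA, compared with 58.3% of all such genes. Both of the others (ATRX and DEK) had H3.3 after EP400 siRNA alone, compared with 18.7%. These counts pool the start of a gene with its far end. The end peaks of CABIN1 (+ strand) were at the right end and that of DEK (- strand) at the left, away from the annotated start. That of ATRX was at the left end, whereas its Pol II, MED26 and H3K18ac end peaks were at the right. Both the ATRX and the DEK peak lay outside the locus, that of DEK (chromosome 6, 18223801 to 18224000) beyond the 315 bp gap to KDM1B. H2AZ was absent after EP400 siRNA at 3 of 10 (ASF1B, DAXX and ATRX), close to the 28.7% of all genes with H2AZ in mock cells. Pol II and MED26 were absent after EP400 siRNA at 0 of 10, where 7.61% and 7.53% of all such genes had none. Few H3.3 intervals were shared: after EP400 siRNA 5 of 50 H3.3 intervals at these loci (10%) met a mock interval, against 10.5% of the whole list. From the mock side, 6 of 59 mock H3.3 intervals (10.2%) were met by an interval after EP400 siRNA, against 5.01% of the whole list. The same share of mock intervals was 10 of 25 for H2AZ (28.1% of the whole list), 15 of 22 for Pol II (48.2%) and 12 of 24 for MED26 (49%). The whole lists are not limited to loci of measured genes, so these shares come from unlike sets.

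Local gene density moved with both readouts over all measured genes, with exceptions among the 10. The 3 genes with a log2 ratio above 0 (ASF1A, ATRX and DEK) were the 3 with the fewest loci within 500 kb of the middle of the gene (5, 7 and 7), and the genes with more H3.3 peaks after EP400 siRNA were ATRX, DEK and H3-3A (12 loci). All 5 genes with fewer H3.3 peaks (HIRA, UBN1, CABIN1, ASF1B and DAXX) had 19 to 36. ASF1A, with 5 loci, and H3-3B, with 26, each had the same number of H3.3 peaks in both conditions. H3-3A, with 12 loci, had a log2 ratio of -1.41. Over all measured genes in 10 groups of density, the median log2 ratio was 0.32 in the least dense group and -1.03 in the densest. More H3.3 peaks after EP400 siRNA were seen in 54% of genes with any H3.3 in the least dense group and in 3.51% in the densest. Against the median of their own density group H3-3A (-1.34), ASF1B (-0.53), CABIN1 (-0.42), HIRA (-0.24) and ATRX (-0.14) were lower, and H3-3B (0.74), DAXX (0.54), DEK (0.38), ASF1A (0.05) and UBN1 (0.02) higher. The part of density in these differences was not tested.

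**Figure D5:**
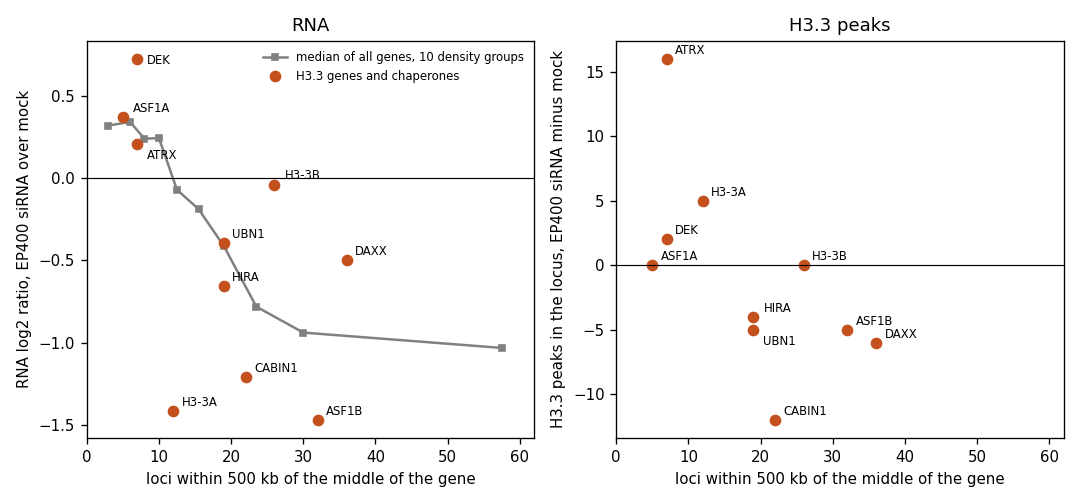
RNA log2 ratio, EP400 siRNA over mock (left), and the difference in the number of H3.3 peaks in the locus, EP400 siRNA minus mock (right), for each gene against the number of loci within 500 kb. Grey squares on the left are medians of all measured genes in 10 density groups. DAXX, with 36 loci, has 6 fewer H3.3 peaks, and ATRX, with 7 loci, 16 more.

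In their pattern over the 11 lists at gene ends the 2 H3.3 genes were common types. H3-3B was present in 11 of 11 lists, as were 489 other genes with a symbol, 4.19% of the measured genes, and H3-3A in 10 (all but H3K4me1), as were 592 (5.07%). The genes with the same pattern and the closest mean FPKM were PSMC3, U2AF1 and KDELR2 for H3-3B, and PEX2, ZCCHC10 and SAMD8 for H3-3A. The match for H3-3A rests on the uncertain level of NM_002107 alone, without the H3P6 row at the same locus. The pattern of ATRX over all 11 lists was shared by 21 genes (0.18%) and that of DEK by 100 (0.857%). H3.3 at an end after EP400 siRNA alone, which both have from a peak outside the locus, was found at 650 measured genes.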

How the data were processed

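RNA values are FPKM per RefSeq transcript, deposited by the authors with confidence limits and a status per library, per the file headers. Bowtie 0.12.9, TopHat2 2.0.8, Cuffdiff 2.0.2 and hg19 are named in the submitters' processing notes. The sources used here do not give the annotation release, normalization, strand setting, peak caller, its threshold or its control. Since the depth behind FPKM is unknown, no count model was fitted. Symbols were matched for 47555 of 48669 rows. Rows under 200 nt were left out, the FPKM and limits of the rest were summed per gene, and 122 genes with a failed estimate were dropped. The test of locus spans against unspliced transcripts showed that locus starts count from 0, and 1 was added. The peak lists, deposited by the authors as coordinates with no score, were intersected at a minimum overlap of 1 bp, and the lists' chromosome 23 was read as X. Inputs were not analysed here. The overlap and ratio steps were tested on simulated data. Python 3.11.15 with pandas 2.3.3 was used. The members and lists were chosen with earlier results of these data known. The named genes were the 10 members, EP400, listed genes past 2-fold and the 3 likest genes by peak pattern to each H3.3 gene. Tried were other pseudocounts, filters, scalings, transcript choices, gene ends of 1 kb and 5 kb, the whole locus, 0.5 of a peak inside, the wider 0.5 of each list and equal peak numbers. The leukocyte marker list is not reported here.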

Additional observations from a re-analysis of the deposited data

How the results depend on the processing

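The count of 3 lower genes became 1 on rescaling to equal sums (TPM), 1 when centred by local gene density and 1 when centred by chromosome, in each case H3-3A, and the count of 0 higher genes became 2 on rescaling. Among the 20 other genes of H3 handling the 4 lower genes became 0 on rescaling and 2 when centred by local density. The 0 higher genes became 6 on rescaling, and the shares of all measured genes are those just given. Keeping only the wider 0.5 of each list left H2AZ after EP400 siRNA at 3 gene ends instead of 7. The remaining 94 recomputed counts were within 1.5 times the reported ones. Leaving out ASF1A, whose locus ends are those of MCM9, and adding the H3P6 row to H3-3A were chosen after seeing the data. The log2 ratios of H3-3B, HIRA, UBN1, DAXX and ATRX had values on both sides of 0 over the alternatives. At a mean of 5 FPKM or more H3-3A, ASF1A and ATRX drop out. No paired analysis was possible because each condition has 1 library and the numbered EP400 immunoprecipitations came as 1 pooled list. No library could be left out for the same reason. Depth is unknown, so the lists cannot show whether an absent peak is a lost one.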

Other observations

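CABIN1 had a second cluster of peaks deep inside its locus. About 144 kb from the left end, Pol II covered 1200 bp after EP400 siRNA and 1500 bp in mock cells (chromosome 22, 24551701 to 24552900 and 24551801 to 24553300), where the Pol II peak at the left end spanned 1100 and 900 bp. MED26 lay within it as 2 peaks of 100 bp after EP400 siRNA and 1 of 600 bp in mock cells, H2AZ as 2 peaks in mock cells alone, and H3.3 as a peak of 1200 bp in mock cells alone. H3K18ac and H3K4me1 lay within or just beside it in mock cells, while the 2 ends of CABIN1 carried neither mark. A further H3.3 peak of 1500 bp, wider than 98.6% of the mock list, coincided with an H3K4me1 peak of 1100 bp (24541801 to 24542900) and was the only H3.3 interval of CABIN1 with a counterpart after EP400 siRNA, of 200 bp. TERT, the catalytic subunit of telomerase, was listed at 0.0432 FPKM after EP400 siRNA and 0.0832 FPKM in mock cells.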
